A study of Homo sapiens with 12 samples.

Results

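The comparison described here is the response of HuH-28 cells to knockdown of LKB1 by small interfering RNA (siRNA), read across genes and pathways. HuH-28 is an established human line of intrahepatic cholangiocarcinoma, a cancer of the bile ducts inside the liver, obtained from a public cell bank. RNA was sequenced from 4 HuH-28 libraries, 2 after transfection with control siRNA and 2 after transfection with LKB1 siRNA, all at 48 h after transfection with a lipid reagent. Both groups thus share the line, the transfection and the time, and the siRNA is the difference that the labels give. The same design was sequenced in 2 other cholangiocarcinoma lines, RBE and SSP-25, which makes 12 libraries in all. Members were the genes whose signal reached 1 or more in 2 or more of the 4 HuH-28 libraries, and 14503 of the 16146 genes tested over the 12 libraries met this. A signal is the deposited value of a gene in a library, taken to be in normalized reads per kilobase of transcript, so that levels can be set beside each other between genes.

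LKB1, encoded by STK11, is a serine/threonine kinase that works in a complex with the pseudokinase STRAD and the scaffold MO25. It activates AMPK, the energy sensor that slows anabolic pathways such as fatty acid, sterol and protein synthesis when ATP is low, and a family of AMPK-related kinases that act on cell polarity, adhesion and transcription. STK11 is a tumor suppressor gene, and its loss is known to alter metabolism, growth control and the shape of epithelial cells.

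A gene "passed" where its adjusted p in limma was under 0.05 (Benjamini-Hochberg over 16146 genes), and was "called" where its log2 fold change, LKB1 siRNA minus control siRNA on log2(signal + 0.5), was also beyond 1 in either direction. The study numbers its libraries by a first and a second test, and the labels do not add whether a test was a separate culture or day. The p-values and SEs thus reflect the spread between tests, whatever that holds. This spread was pooled over all 6 groups, so it rests on the RBE and SSP-25 libraries as well as on those of HuH-28. An exact permutation test of 2 libraries against 2 cannot go below p = 0.33, and no such test was used. The summed signal of a HuH-28 library ranged from 10547973 to 11726703. From 1057 to 3014 genes of the table were at 0 in a library (listed at 0 or under 1e-06), fewest in both libraries numbered 1. Between replicates the log2 difference had an SD over genes of 0.215 with control siRNA and 0.231 with LKB1 siRNA (11560 genes whose mean signal was 20 or more). The files give no read counts, so the depth behind a signal is unknown.

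The markers showed what kind of cells were compared. Of 18 biliary epithelial markers 14 were measured, and KRT7, the duct keratin, was at 2467 and 2406 with control siRNA and 3019.9 and 2876 with LKB1 siRNA. KRT19, another defining duct keratin, had only 9.86 and 11.03 with control siRNA and 11.5 and 17.3 with LKB1 siRNA, and EPCAM, ONECUT1 and SCTR were among the markers that did not reach the filter. All 11 fibroblast and stellate markers were measured, with COL3A1 at 25130.5 and 27040.4 with control siRNA and 21708 and 22249 with LKB1 siRNA, and their summed signal was 54504 to 57392 with control siRNA and 58692 to 60324 with LKB1 siRNA. The label of a cholangiocarcinoma line thus rests in these libraries on keratins beside high levels of mesenchymal genes. Summed biliary markers were 11871 and 12483 with control siRNA and 15446 and 15762 with LKB1 siRNA, and summed hepatocyte markers (5 of 18 measured, ALB not among them) stayed between 154 and 205. Of the biliary markers 4 passed as higher, KRT7, KRT8 and KRT18 among them, and 1 as lower. Leukocyte markers summed to 1290 to 1704 over the libraries, nearly all of it CD68, and endothelial markers to 309 to 418, nearly all of it KDR. In bulk RNA, fewer cells of a type and less RNA per cell cannot be told apart.

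STK11 fell. Its signal was 698 and 600.4 with control siRNA and 223 and 206 with LKB1 siRNA, so both knockdown libraries lay below both controls (log2 fold change -1.59, SE 0.11, adjusted p = 1.1e-05). STK11 lies on chromosome 19 from 1177558 to 1228435 on the plus strand (GENCODE v29, GRCh38). With the LKB1 siRNA the signal that remained was 206 or more, so the knockdown of the mRNA was partial. The fall was smaller than the mean fall of the other lines, with log2 fold changes of -1.68 in RBE and -2.77 in SSP-25 and a difference of 0.63 (limma interaction contrast, adjusted p = 0.018).

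Over all members, 615 of 14503 genes were called (4.24%), of which 395 were higher (2.72%) and 220 lower (1.52%). At an adjusted p under 0.05 with no minimum fold, 2277 genes passed as higher (15.7%) and 2473 as lower (17.1%), and these shares are the background for every list below. The median log2 fold change of all members was -0.0006, and the middle of the distribution ran from -0.233 to 0.234 between its quartiles. Beyond a log2 fold change of 2 in either direction lay 79 called genes, 49 higher and 30 lower. The 2 groups of libraries did not overlap for 8800 genes (60.7%, with 30.1% higher and 30.6% lower) and for all 615 called genes. Of the called genes, 275 had a mean signal under 20 in their higher group. With the replicate number of the HuH-28 libraries as a block, 414 genes were called higher and 239 lower, 3028 passed as higher and 3276 as lower. After median centring 2390 passed as higher and 2308 as lower, so which direction had more genes passing depends on the scaling.

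**Figure D1:**
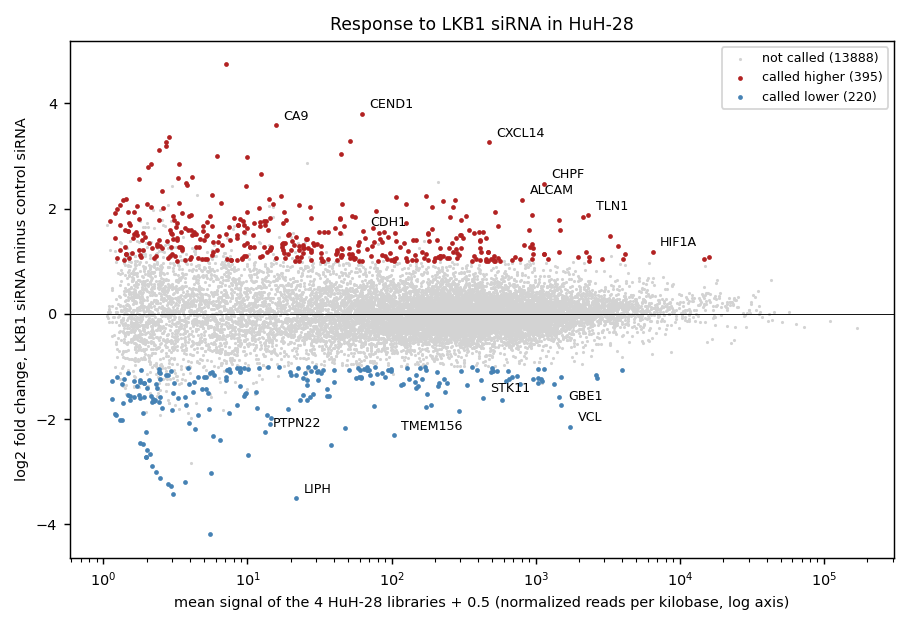
Log2 fold change in HuH-28 (y axis, LKB1 siRNA minus control siRNA) against the mean signal of the 4 libraries plus 0.5 (x axis, log scale) for 14503 genes, with 395 called higher in red and 220 called lower in blue. Calls are spread over the whole range of signal, and the largest fold changes lie at low signal.

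The calls had a sequence feature in their 3′ UTRs. An siRNA, like a microRNA, is loaded into an Argonaute protein, and besides its intended target it can lower other mRNAs whose 3′ UTR pairs with the bases near its 5′ end. The 7-base words GCAGTAC and GAAGGAA were therefore searched on the sense strand of the longest annotated 3′ UTR of each gene. The words came from earlier results on all 3 lines, HuH-28 included, so the values for them are a description. The sequences of the siRNAs are not given in the sources used here. In these sites of called genes the word is in capitals, and the rest of the 25 bases is the flanking sequence, written as DNA of the sense strand 5′ to 3′ (GRCh38), for the first copy where a UTR holds several. The first 5 genes, which hold GCAGTAC, rose:
CHPF, chr2:219539100-219539124, minus strand: cgtatttatGCAGTACagtctgcct
TLN1, chr9:35697628-35697652, minus strand: cccagtcccGCAGTACatcccctgt
HIF1A, chr14:61747516-61747540, plus strand: gctttgccaGCAGTACgtggtagcc
ALCAM, chr3:105575546-105575570, plus strand: atttatcaaGCAGTACatgaaagtg
CXCL14, chr5:135570934-135570958, minus strand: acagaacatGCAGTACtaaagcaat
The next 5 hold GAAGGAA and fell:
VCL, chr10:74118204-74118228, plus strand: tactaaaaaGAAGGAAaatgatctg
LIPH, chr3:185507943-185507967, minus strand: gaggcaaggGAAGGAAaagcagagc
GXYLT1, chr12:42087715-42087739, minus strand: gataagtgtGAAGGAAtcgtcttgg
CXCL5, chr4:73997537-73997561, minus strand: ggaagacaaGAAGGAAagattttgt
CCDC99, chr5:169604432-169604456, plus strand: ctattaattGAAGGAAaatgttata

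Of the 11560 members with a mean signal of 20 or more, 11395 (98.6%) had a 3′ UTR to search. GCAGTAC was held by 613 of these UTRs (5.38%), with a median log2 fold change of 0.18, and 50 of these genes were called higher (8.16%) against 151 of the 10782 without it (1.4%). Called-higher genes held GCAGTAC in 50 of 201 cases (24.9%), and called-lower genes in 4 of 102 (3.92%). GAAGGAA was held by 2481 UTRs (21.8%), with a median of -0.10, and 42 of these genes were called lower (1.69%) against 60 of the 8914 without it (0.673%). Called-lower genes held GAAGGAA in 42 of 102 cases (41.2%) and called-higher genes in 44 of 201 (21.9%). Over the longest 3′ UTRs of all 19108 protein-coding genes searched, 4.49% held GCAGTAC and 19.7% held GAAGGAA.

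Long UTRs hold any word more readily, and the UTRs with GCAGTAC had a median length of 3270 bases against 1295 without it. For GAAGGAA the median lengths were 2994 and 1067 bases. Split by length into 3 equal parts, the shortest UTRs held GCAGTAC in 35 genes, which had a median log2 fold change of 0.52, and 25 of them passed as higher and none as lower. Among the same short UTRs, 195 genes held GAAGGAA, with a median of -0.05, 25 passed as higher and 47 as lower. In the longest UTRs the shifts were smaller or similar, with medians of 0.15 for 439 genes with GCAGTAC and -0.09 for 1619 with GAAGGAA, against -0.05 for all. There 7.06% of genes with GCAGTAC were called higher against 2.13% of all, and 1.48% of those with GAAGGAA were called lower against 1.11% of all. With at least 2 copies of GCAGTAC, 42 genes had a median of 0.32, and with at least 2 copies of GAAGGAA, 608 genes had a median of -0.12. Ranked by the shift of log2 fold change that went with holding a word, standardised and adjusted for UTR length, base composition and mean signal, GCAGTAC was rank 1 of 14037 words for higher values (shift 0.32) and GAAGGAA rank 1 for lower values (shift -0.09). Since the words were taken from results that included these same libraries, their ranks are a description and not a test of them. Neither word was held by 121 of the called-higher and 59 of the called-lower genes searched. Among genes named below, CDK6 and PPARGC1A hold GCAGTAC alone and fell. CLDN12 and RRAGD hold both words and fell, and NEGR1, STEAP3 and SLC41A1 hold both and rose. Genes that hold GAAGGAA alone and rose include RAB39B, SIK1, BRSK1, EPHB2, GDF11, CDH1, CD24, EGLN3, VEGFA, CHST11 and PLEKHG3. The part these words play in any single gene's change was not tested.

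**Figure D2:**
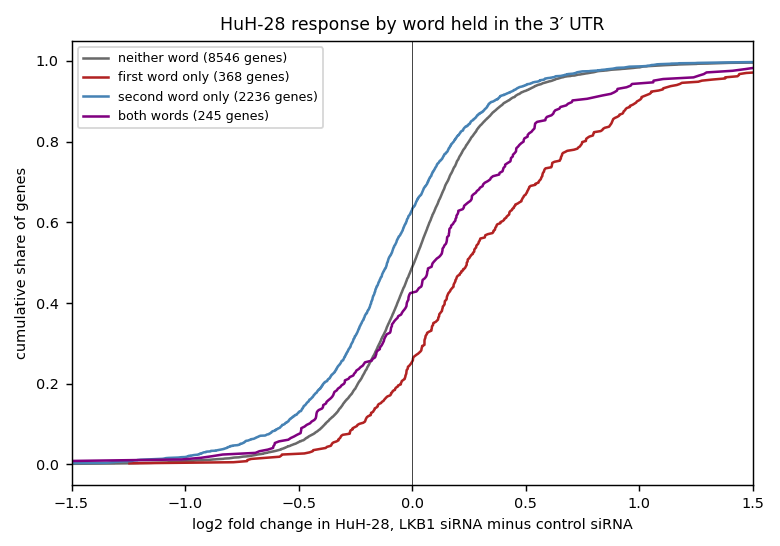
Cumulative share of 11395 genes (y axis) against log2 fold change in HuH-28 (x axis), by which of the words GCAGTAC (first) and GAAGGAA (second) the longest 3′ UTR holds. The curve of the first word alone lies to the right (median 0.24, 368 genes) and that of the second word alone to the left (median -0.11, 2236 genes) of the curve of neither word (median 0.01, 8546 genes), and that of both words (median 0.10, 245 genes) lies between.

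The STK11 mRNA itself was also searched. The 3′ UTR of STK11 holds neither word. Its coding sequence holds GAAGGAA once, across an exon junction, in the stretch caacgtgaaGAAGGAAattcaacta between positions 1207192 and 1218429 of chromosome 19, plus strand, intron left out (GRCh38). The word is common, since 39.9% of whole transcripts of these genes hold it somewhere.

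The 12 largest rises with a mean of at least 20 in the higher group were CEND1, CA9, FXYD7, CXCL14, RAB39B, IP6K3, CHPF, NEGR1, GIMAP5, VGF, GIMAP1-GIMAP5 and ALCAM. CEND1, a neuronal protein tied to cell cycle exit, rose most, from 8.69 and 7.01 with control siRNA to 114 and 117 with LKB1 siRNA (log2 fold change 3.81, SE 0.47, adjusted p = 0.00027). CXCL14, a chemokine of epithelia and stroma, was at 88.3 and 89.9 with control siRNA and 876 and 845 with LKB1 siRNA (log2 fold change 3.26, SE 0.38, adjusted p = 0.00022). In both genes the replicates lay close together, and that the groups do not overlap follows from the choice of the 12. FXYD7, a regulator of the sodium pump known from brain, was at 9.83 and 8.37 with control siRNA and 94.6 and 90.1 with LKB1 siRNA (log2 fold change 3.28, SE 0.52, adjusted p = 0.0012). RAB39B, a neuronal RAB GTPase, was at 8.18 and 10.2 with control siRNA and 76.7 and 79.8 with LKB1 siRNA (log2 fold change 3.03, SE 0.35, adjusted p = 0.0002).

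CHPF and ALCAM rose from substantial levels. CHPF, the chondroitin polymerizing factor, which helps build the sugar chains of chondroitin sulfate, had signals of 359 and 333 with control siRNA and 2058 and 1792 with LKB1 siRNA (log2 fold change 2.47, SE 0.09, adjusted p = 2.4e-07). ALCAM, an adhesion molecule of the immunoglobulin family, had signals of 302 and 285 with control siRNA and 1294 and 1349.9 with LKB1 siRNA (log2 fold change 2.17, SE 0.06, adjusted p = 9.1e-08). Both hold GCAGTAC in their 3′ UTRs, as printed above. NEGR1, a neuronal adhesion molecule whose searched UTR of 11506 bases holds both words, was at 59.3 and 60.2 with control siRNA and 268 and 301 with LKB1 siRNA. The secreted neuropeptide precursor VGF was at 42.3 and 32.6 with control siRNA and 199 and 155 with LKB1 siRNA, and IP6K3, an inositol hexakisphosphate kinase, at 3.62 and 2.26 with control siRNA and 21.1 and 20.5 with LKB1 siRNA. GIMAP5, a GTPase known from lymphocytes, and the readthrough gene GIMAP1-GIMAP5 share sequence, so their reads may be split between them. GIMAP5 was at 4.35 and 6.83 with control siRNA and 24.5 and 30.97 with LKB1 siRNA, and both genes missed the threshold at a pseudocount of 0.1 (adjusted p = 0.072 and 0.0653).

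Under the same minimum, the 12 largest falls were LIPH, ALDOC, TMEM156, PTPN22, CXCL5, VCL, QRFP, AKR1B10, ALDH1A1, TTL, ACOT4 and GXYLT1. LIPH, a phospholipase that makes lysophosphatidic acid, fell most, from 32.9 and 46.5 to 3.17 and 2.82 (log2 fold change -3.51, SE 0.21, adjusted p = 3.4e-06). TMEM156, a membrane protein of poorly known function, was at 163 and 181 with control siRNA and 30.4 and 38.6 with LKB1 siRNA (log2 fold change -2.31, SE 0.11, adjusted p = 1.2e-06). VCL, which encodes vinculin, the linker between integrin adhesions and actin, had by far the highest level of the 12 and fell from 2925 and 2744 to 701 and 589 (log2 fold change -2.14, SE 0.07, adjusted p = 2.1e-07). TTL, the ligase that puts tyrosine back on tubulin, was at 481 and 443 with control siRNA and 132 and 124 with LKB1 siRNA (log2 fold change -1.84, SE 0.07, adjusted p = 2.4e-07), and the xylosyltransferase GXYLT1 at 265 and 271 with control siRNA and 74.7 and 81.9 with LKB1 siRNA. In each of these 5 genes the groups did not overlap, which follows from the choice of the 12.

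PTPN22, a phosphatase best known from lymphocytes, had signals of 23.3 and 19.7 with control siRNA and 4.58 and 3.66 with LKB1 siRNA (log2 fold change -2.25, SE 0.25, adjusted p = 0.00014), and CXCL5, a neutrophil-attracting chemokine, had 73.5 and 81.1 with control siRNA and 13.2 and 21.2 with LKB1 siRNA (log2 fold change -2.18, SE 0.20, adjusted p = 4.7e-05). The reductase AKR1B10 was at 20.6 and 24.6 with control siRNA and 7.68 and 3.69 with LKB1 siRNA, and the retinal dehydrogenase ALDH1A1 at 19.6 and 22.7 with control siRNA and 4.23 and 6.41 with LKB1 siRNA. The value of the aldolase ALDOC rested on 1 library. Its signals were 11.5 and 126 with control siRNA and 5.42 and 7.63 with LKB1 siRNA, so the controls differed more from each other than the lower control did from the knockdown libraries. ALDOC passed only narrowly (adjusted p = 0.045), and without control replicate 2 its log2 fold change was -0.79 (adjusted p = 0.145). ACOT4, an acyl-CoA thioesterase, lost its call without LKB1 replicate 1 (adjusted p = 0.0759) or control replicate 1 (0.0511). QRFP, a neuropeptide gene, lost its call without control replicate 2 (0.111) or LKB1 replicate 1 (0.133).

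**Figure D3:**
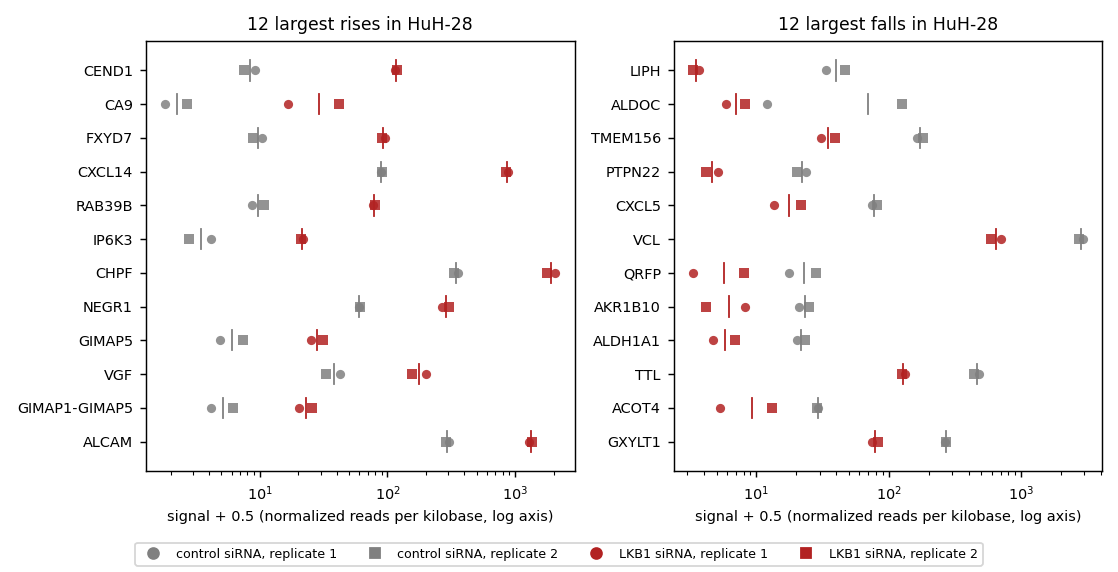
Signal plus 0.5 (x axis, log scale, normalized reads per kilobase) of each of the 4 HuH-28 libraries for the 12 largest rises (left) and falls (right), with control siRNA in gray, LKB1 siRNA in red, circles for replicate 1, squares for replicate 2 and short vertical lines at the group means. The 24 genes were picked from called genes whose groups do not overlap, so their lack of overlap follows from the choice. The controls of ALDOC, at 11.5 and 126, are the replicates farthest apart.

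The LKB1 complex and its kinase targets were read next. In the list of the LKB1 complex and AMPK, 1 of 11 measured members passed as higher and 5 as lower (median log2 fold change -0.09), against 15.7% and 17.1% of all members. Beside STK11, the fallers were led by both genes of the MO25 scaffold, CAB39 at 829 and 849.8 with control siRNA and 594 and 639.8 with LKB1 siRNA (log2 fold change -0.44, SE 0.06, adjusted p = 0.00039) and CAB39L at 75.95 and 70.7 with control siRNA and 48.3 and 48.2 with LKB1 siRNA (log2 fold change -0.60, SE 0.10, adjusted p = 0.0019). PRKAB2, the AMPK β2 subunit, was at 322 and 348 with control siRNA and 273 and 281 with LKB1 siRNA (log2 fold change -0.27, SE 0.06, adjusted p = 0.0069). The fold changes of the partners were smaller in size than that of STK11. Of the AMPK-related kinases, 5 of 10 measured members passed as higher and 0 as lower (median log2 fold change 0.22), and 3 as higher without control replicate 2 or LKB1 replicate 1. SIK1, a salt-inducible kinase that holds back CREB coactivators, rose from 163 and 148 to 329.7 and 319.9 (log2 fold change 1.07, SE 0.07, adjusted p = 6.4e-06), and the brain kinase BRSK1, at a low level, from 11.9 and 10.1 to 33.3 and 29.5 (log2 fold change 1.47, SE 0.33, adjusted p = 0.0074). NUAK2 was at 236 and 229 with control siRNA and 289 and 274 with LKB1 siRNA (log2 fold change 0.27, SE 0.06, adjusted p = 0.0069). NUAK1 passed with all libraries (log2 fold change 0.36, SE 0.08, adjusted p = 0.0085) but not without control replicate 2 (adjusted p = 0.0546) or LKB1 replicate 1 (0.0556). Among CREB targets, 4 of 17 measured members passed as higher and 3 as lower (median log2 fold change 0.15), shares near the background, with 1 higher without control replicate 1, 2 higher without either LKB1 library, and 1 lower without control replicate 1 or LKB1 replicate 1. PPARGC1A, the coactivator of mitochondrial genes, fell from 62.5 and 62.5 to 36 and 36 (log2 fold change -0.79, SE 0.17, adjusted p = 0.0063).

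Genes of the mTORC1 pathway, which AMPK restrains, changed in both directions: 8 of 20 measured members passed as higher and 3 as lower (median log2 fold change 0.11), with 5 lower without LKB1 replicate 1. AKT1S1, which encodes the mTORC1 inhibitor PRAS40, was at 817 and 798 with control siRNA and 1516 and 1368 with LKB1 siRNA (log2 fold change 0.83, SE 0.06, adjusted p = 8.9e-06), and the translation repressor EIF4EBP1 at 1971 and 1872 with control siRNA and 2772 and 2616 with LKB1 siRNA (log2 fold change 0.49, SE 0.06, adjusted p = 0.00026). RRAGD, a RAG GTPase that brings mTORC1 to the lysosome, fell from 57.1 and 49.02 to 17.7 and 17.7 (log2 fold change -1.56, SE 0.12, adjusted p = 2.0e-05). Of 77 cytosolic ribosomal protein genes, 24 passed as higher and none as lower (median 0.25), led by RPS28 at 8723 and 8439.9 with control siRNA and 11291 and 10923 with LKB1 siRNA (log2 fold change 0.37, SE 0.06, adjusted p = 0.002). Ribosomal protein genes have many near-identical pseudogenes, which can split reads. That count was 2 when HuH-28 was fitted alone, 11 after quantile normalization, 15 without control replicate 1, 14 without LKB1 replicate 2 and 58 with the replicate number as a block. Their summed signal also differed between replicates (799314 and 926590 with control siRNA, 941016 and 1089190 with LKB1 siRNA).

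Of all lists, mitosis and spindle had the largest share of passing genes: 2 of 30 measured members passed as higher and 22 as lower (median log2 fold change -0.38). CCDC99, which encodes the kinetochore protein spindly, fell from 2135 and 2191 to 703 and 737 (log2 fold change -1.59, SE 0.04, adjusted p = 9.1e-08), and its 3′ UTR site is printed above. HMMR, a spindle protein and hyaluronan receptor, was at 1415 and 1381 with control siRNA and 644 and 713 with LKB1 siRNA (log2 fold change -1.04, SE 0.08, adjusted p = 1.4e-05). The kinesin KIF23, needed for cytokinesis, was at 1518 and 1472 with control siRNA and 851 and 869 with LKB1 siRNA (log2 fold change -0.80, SE 0.05, adjusted p = 3.4e-06), and the kinase AURKA at 3402 and 3376 with control siRNA and 2270.0 and 2313 with LKB1 siRNA (log2 fold change -0.56, SE 0.05, adjusted p = 2.6e-05). In each of the 4 genes, named for their small p, both knockdown libraries lay below both controls, as they did for 30.6% of all members. The 30 genes summed to 47290 and 47880 with control siRNA and 35357 and 36527 with LKB1 siRNA. Fitted alone, HuH-28 had 11 members lower, and leaving out 1 library gave 19 to 21.

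DNA replication and S phase genes moved less far: 1 of 34 measured members passed as higher and 13 as lower (median log2 fold change -0.19). E2F1, the transcription factor of S phase entry, was at 1138 and 1190.0 with control siRNA and 840.2 and 820.4 with LKB1 siRNA (log2 fold change -0.49, SE 0.07, adjusted p = 0.00056), and RRM2, the small subunit of ribonucleotide reductase, at 964 and 959 with control siRNA and 793 and 791 with LKB1 siRNA (log2 fold change -0.28, SE 0.04, adjusted p = 0.00074). The polymerase POLE was at 288 and 299.8 with control siRNA and 229 and 218 with LKB1 siRNA. Of the G1 cyclins, kinases and inhibitors, 0 of 15 measured members passed as higher and 5 as lower (median log2 fold change -0.07). The fallers included CDK6, from 445 and 392 to 270.5 and 241 (log2 fold change -0.71, SE 0.09, adjusted p = 0.00029), and the CDK inhibitor CDKN2C, from 598 and 579 to 487 and 459.7 (log2 fold change -0.31, SE 0.05, adjusted p = 0.002). CCND1, the cyclin D1 gene, was at 1714 and 1519 with control siRNA and 1983 and 1729 with LKB1 siRNA and did not pass (log2 fold change 0.20, SE 0.09, adjusted p = 0.12). It passed with replicate number as a block (adjusted p = 0.0189) and without LKB1 replicate 2 (0.0412). MYC was at 654 and 624 with control siRNA and 716 and 664 with LKB1 siRNA and did not pass either (log2 fold change 0.11, SE 0.06, adjusted p = 0.17). Among p53 targets 8 of 21 measured members passed as higher and 2 as lower (median log2 fold change 0.09), 5 of them higher without LKB1 replicate 1, and MDM2, the ligase that degrades p53, fell from 239 and 236 to 133 and 139.6 (log2 fold change -0.80, SE 0.06, adjusted p = 1.1e-05). Fitted alone, HuH-28 had 2 replication genes, 1 G1 gene and 2 p53 targets lower and no p53 target higher.

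Most NRF2 targets and glutathione genes passed as lower. NRF2 is the transcription factor of the response to electrophiles and oxidants. In this list 1 of 23 measured members passed as higher and 16 as lower (median log2 fold change -0.41), and 6 were called lower. SLC7A11, the cystine importer that feeds glutathione synthesis, fell from 216 and 221 to 84.4 and 83.4 (log2 fold change -1.37, SE 0.07, adjusted p = 2.2e-06). The aldo-keto reductase AKR1C3 was at 43.6 and 36.9 with control siRNA and 11.8 and 14.5 with LKB1 siRNA (log2 fold change -1.58, SE 0.09, adjusted p = 3.7e-06) and AKR1C1 at 29.3 and 25.6 with control siRNA and 11.6 and 12.3 with LKB1 siRNA (log2 fold change -1.17, SE 0.08, adjusted p = 7.0e-06), though these paralogs are similar enough to share reads. OSGIN1 was at 91.8 and 81.8 with control siRNA and 40.8 and 42.5 with LKB1 siRNA (log2 fold change -1.05, SE 0.07, adjusted p = 6.4e-06). These genes, named for their small p, did not overlap between groups, as was so for all 615 called genes. When HuH-28 was fitted alone, 9 members were lower.

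Genes induced by HIF went the other way, while the list of HIF subunits and oxygen-sensing enzymes was split. In that list 3 of 9 measured members passed as higher and 3 as lower (median log2 fold change 0.07). HIF1A, the oxygen-regulated subunit of the transcription factor HIF-1, is regulated mainly through its protein, and its mRNA rose from 4078 and 3855 to 8946 and 9007 (log2 fold change 1.18, SE 0.06, adjusted p = 2.3e-06). The 3′ UTR of HIF1A holds GCAGTAC, as printed above. EPAS1, which encodes HIF-2α, was at 5063 and 4434 with control siRNA and 7159.6 and 6047 with LKB1 siRNA (log2 fold change 0.47, SE 0.08, adjusted p = 0.0019), and HIF1AN, the hydroxylase that blocks HIF transactivation, at 590.5 and 626 with control siRNA and 479 and 475 with LKB1 siRNA (log2 fold change -0.35, SE 0.05, adjusted p = 0.00069). Of the genes that HIF is known to induce, 13 of 21 measured members passed as higher and 0 as lower (median log2 fold change 0.42). CA9, carbonic anhydrase IX, was at 1.31 and 2.18 with control siRNA and 16.2 and 41.4 with LKB1 siRNA (log2 fold change 3.58, SE 0.60, adjusted p = 0.0017), so its LKB1 libraries lay above the controls but differed from each other by over 2 times. The prolyl hydroxylase EGLN3, itself induced by HIF, was at 86.1 and 67.6 with control siRNA and 218 and 189.6 with LKB1 siRNA (log2 fold change 1.41, SE 0.12, adjusted p = 2.6e-05). LOX, the lysyl oxidase that crosslinks collagen, was at 239 and 211 with control siRNA and 583 and 612 with LKB1 siRNA (log2 fold change 1.41, SE 0.14, adjusted p = 7.6e-05), and PFKFB4, a regulator of glycolytic flux, at 64.5 and 68.9 with control siRNA and 166 and 159 with LKB1 siRNA (log2 fold change 1.28, SE 0.08, adjusted p = 4.6e-06). VEGFA rose less, from 225 and 242 to 314 and 309 (log2 fold change 0.42, SE 0.05, adjusted p = 0.00033). The searched UTRs of CA9, EGLN3, LOX, PFKFB4 and VEGFA hold no GCAGTAC. Those of EGLN3 and VEGFA hold GAAGGAA, and both genes rose.

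Glycolysis shared the direction: 11 of 18 measured members passed as higher and 2 as lower (median log2 fold change 0.28), with 7 higher without control replicate 1. LDHA, the lactate dehydrogenase subunit of fast-growing cells, was at 13848 and 14469 with control siRNA and 20636 and 21927 with LKB1 siRNA (log2 fold change 0.59, SE 0.07, adjusted p = 0.00017). The muscle phosphofructokinase PFKM was at 253 and 252 with control siRNA and 355 and 346 with LKB1 siRNA (log2 fold change 0.47, SE 0.05, adjusted p = 7.3e-05), while the hexokinase HK1 fell from 2078 and 2248 to 1517 and 1565 (log2 fold change -0.49, SE 0.05, adjusted p = 8.7e-05). Summed over the list, the signal was 133139 and 153618 with control siRNA and 156672 and 176580 with LKB1 siRNA, so the second control approached the first knockdown library. Fitted alone, HuH-28 had 6 HIF-induced and 2 glycolysis genes higher. Glycogen genes split: 5 of 19 measured members passed as higher and 6 as lower (median log2 fold change -0.15). The glycogen branching enzyme GBE1 fell from 2240.1 and 2363 to 678 and 703 (log2 fold change -1.74, SE 0.06, adjusted p = 2.1e-07), and UGP2, which makes UDP-glucose, rose from 1169 and 1170.2 to 1972 and 2116 (log2 fold change 0.80, SE 0.05, adjusted p = 3.2e-06). Of 33 oxidative phosphorylation genes 1 passed as higher and 2 as lower, well under the background of 15.7% and 17.1%, and passed as higher in 12 cases with the replicate number as a block, 4 without control replicate 2 and 7 without LKB1 replicate 1.

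In cholesterol and fatty acid synthesis, 10 of 29 measured members passed as higher and 4 as lower (median log2 fold change 0.10), with 2 lower without control replicate 1. HMGCS1, an early enzyme of the sterol pathway, fell from 505 and 559 to 225 and 282 (log2 fold change -1.07, SE 0.10, adjusted p = 4.9e-05). DHCR7, MSMO1 and SCD rose, with SCD, the desaturase that makes oleate, at 975 and 897 with control siRNA and 1647 and 1455 with LKB1 siRNA (log2 fold change 0.73, SE 0.07, adjusted p = 7.7e-05). The direction thus differed between enzymes of the same pathways.

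Wnt ligands and receptors that passed were higher, with 1 receptor gene as the exception. Wnt proteins are secreted ligands that bind Frizzled receptors and, in one branch, stabilize β-catenin. Of the ligands, 5 of 11 measured members passed as higher and 0 as lower (median log2 fold change 0.97), all from low levels apart from WNT5A. WNT4 was at 6.25 and 10.5 with control siRNA and 33.1 and 38.6 with LKB1 siRNA (log2 fold change 2.08, SE 0.32, adjusted p = 0.001) and WNT7A at 7.14 and 6.58 with control siRNA and 32.2 and 23.6 with LKB1 siRNA (log2 fold change 1.93, SE 0.43, adjusted p = 0.008), and WNT7A missed the threshold at a pseudocount of 0.1 (adjusted p = 0.152). WNT5B was at 21.3 and 17.8 with control siRNA and 44.6 and 43.5 with LKB1 siRNA (log2 fold change 1.16, SE 0.18, adjusted p = 0.001) and WNT7B at 7.84 and 10.9 with control siRNA and 19.1 and 18.1 with LKB1 siRNA (log2 fold change 0.97, SE 0.13, adjusted p = 0.00055). WNT5A, a ligand of the noncanonical branch and the most abundant, was at 636 and 575 with control siRNA and 859.7 and 793 with LKB1 siRNA (log2 fold change 0.45, SE 0.13, adjusted p = 0.023), but did not pass without control replicate 2 (adjusted p = 0.117) or LKB1 replicate 1 (0.107). WNT10A at 17.2 and 8.13 with control siRNA and 36.1 and 26.3 with LKB1 siRNA and WNT2B at 22.8 and 24.4 with control siRNA and 31.9 and 30.9 with LKB1 siRNA did not pass (adjusted p = 0.14 and 0.43), though both passed at a pseudocount of 10 (0.00405 and 0.0422).

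Among Frizzled receptors and coreceptors, 7 of 14 measured members passed as higher and 1 as lower (median log2 fold change 0.32). FZD7 rose from 479 and 394 to 909 and 767 (log2 fold change 0.94, SE 0.13, adjusted p = 0.00044) and FZD1 from 281 and 240.1 to 438 and 349.8 (log2 fold change 0.59, SE 0.11, adjusted p = 0.0032). FZD2 was at 336 and 277 with control siRNA and 442 and 363 with LKB1 siRNA, passed narrowly (log2 fold change 0.39, SE 0.10, adjusted p = 0.016) and did not pass without control replicate 2 (adjusted p = 0.102) or LKB1 replicate 1 (0.0974). CTNNB1, which encodes β-catenin, was at 4623 and 4496 with control siRNA and 5209 and 5147 with LKB1 siRNA (log2 fold change 0.18, SE 0.04, adjusted p = 0.012) and did not pass after quantile normalization (adjusted p = 0.326). Wnt antagonists and ligand regulators had 7 of 27 measured members passed as higher and 2 as lower (median log2 fold change 0.19), and 3 higher without control replicate 2 or LKB1 replicate 1. Of the β-catenin and TCF targets, 6 of 23 measured members passed as higher and 2 as lower (median log2 fold change 0.23), with EPHB2, an ephrin receptor, at 473 and 436 with control siRNA and 980.1 and 868 with LKB1 siRNA (log2 fold change 1.02, SE 0.07, adjusted p = 1.1e-05). With HuH-28 fitted alone, 3 ligands and 1 receptor were higher.

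Cadherin and adhesion genes changed in both directions, and in the list of cadherins, catenins and EMT factors 4 of 19 measured members passed as higher and 1 as lower (median log2 fold change 0.18). After quantile normalization 2 passed as higher and 3 as lower, so the balance of this list depends on the scaling, and 8 were higher with the replicate number as a block. CDH1, which encodes E-cadherin, the cadherin of epithelia, was at 29.98 and 33.3 with control siRNA and 94.4 and 94.7 with LKB1 siRNA (log2 fold change 1.57, SE 0.13, adjusted p = 2.8e-05). This direction is opposite to the one the study reports for CDH1 in HuH-28. CDH2, the cadherin of mesenchymal and neural cells, was at 7829 and 7776 with control siRNA and 9199.5 and 8857 with LKB1 siRNA, so its level was far above that of CDH1 in every library. It passed by a small margin (log2 fold change 0.21, SE 0.05, adjusted p = 0.011), and not after quantile normalization (adjusted p = 0.416). CDH6 rose from 85.3 and 77.4 to 174 and 164 (log2 fold change 1.05, SE 0.09, adjusted p = 3.4e-05). TLN1, which encodes talin, the activator of integrins, rose from 1041 and 948 to 3882 and 3402 (log2 fold change 1.87, SE 0.07, adjusted p = 3.6e-07), opposite to its partner vinculin. FERMT2, the kindlin that acts with talin, fell from 2028 and 2179.6 to 897 and 930.3 (log2 fold change -1.20, SE 0.06, adjusted p = 1.9e-06). The UTR of TLN1 holds GCAGTAC, and those of VCL and FERMT2 hold GAAGGAA, as do those of CDH1 and CD24, which rose. Over the focal adhesion core, 9 of 27 measured members passed as higher and 3 as lower (median log2 fold change 0.05), with 5 lower without control replicate 2. Over integrin subunits, 5 of 18 measured members passed as higher and 2 as lower (median log2 fold change 0.15). CD24, a mucin-like adhesion molecule with several pseudogenes, was at 276 and 297 with control siRNA and 641 and 651 with LKB1 siRNA (log2 fold change 1.17, SE 0.10, adjusted p = 3.5e-05), and the adaptor NEDD9 at 556 and 560.5 with control siRNA and 724 and 723 with LKB1 siRNA (log2 fold change 0.37, SE 0.06, adjusted p = 0.0016).

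Tight junction and polarity genes passed as lower more than as higher: 1 of 22 measured members passed as higher and 5 as lower (median log2 fold change -0.12) for the first list (3 higher at a pseudocount of 1), and 1 of 17 measured members passed as higher and 5 as lower (median log2 fold change -0.08) for the second, with 2 polarity genes lower without control replicate 1 or LKB1 replicate 2. CLDN12, a claudin whose searched UTR holds both words, fell from 274 and 298 to 73.97 and 98.3 (log2 fold change -1.74, SE 0.13, adjusted p = 1.2e-05), and CLDN1 from 154 and 175 to 96.3 and 110.2 (log2 fold change -0.67, SE 0.12, adjusted p = 0.002). CGN, the junction protein cingulin, rose from 7.39 and 6.99 to 14.2 and 13.9 (log2 fold change 0.92, SE 0.10, adjusted p = 0.00014), and the polarity gene LLGL2 from 11.99 and 17.6 to 30.3 and 32.03 (log2 fold change 1.07, SE 0.19, adjusted p = 0.0022). Both risers had low signals in every library.

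In each of the matrix lists more members passed as higher than as lower. Of the chondroitin and heparan sulfate enzymes, 15 of 31 measured members passed as higher and 3 as lower (median log2 fold change 0.28), against a background of 15.7% and 17.1%. Without control replicate 1 or LKB1 replicate 2, 1 was lower, and with HuH-28 fitted alone 7 were higher and none lower. Beside CHPF, HS6ST1, which sulfates heparan at the 6-O position, rose from 138 and 134 to 484 and 455 (log2 fold change 1.79, SE 0.10, adjusted p = 2.5e-06). CHST11, a chondroitin sulfotransferase, was at 217 and 208 with control siRNA and 319 and 295 with LKB1 siRNA (log2 fold change 0.53, SE 0.06, adjusted p = 0.00015). Collagen chains had 9 of 22 measured members passed as higher and 3 as lower (median log2 fold change 0.37), with COL7A1, the anchoring fibril collagen, at 146 and 148 with control siRNA and 277 and 262 with LKB1 siRNA (log2 fold change 0.87, SE 0.08, adjusted p = 6.0e-05) and COL13A1 falling from 126 and 124 to 55.1 and 52.8 (log2 fold change -1.20, SE 0.11, adjusted p = 4.7e-05). TNC, the matricellular protein tenascin C, rose from 19.7 and 17.9 to 70.9 and 65.2 (log2 fold change 1.83, SE 0.08, adjusted p = 7.0e-07) in a list of laminins and matricellular proteins where 7 of 26 measured members passed as higher and 3 as lower (median log2 fold change 0.02). The summed signal of that list did not rise, with 79593 and 78962 with control siRNA and 78747 and 77640 with LKB1 siRNA. The plasminogen activator PLAT was at 35.8 and 35.1 with control siRNA and 108 and 115 with LKB1 siRNA (log2 fold change 1.64, SE 0.14, adjusted p = 3.0e-05), and among proteases and inhibitors of matrix 7 of 21 measured members passed as higher and 4 as lower (median log2 fold change 0.12), with 4 higher without control replicate 1 and 2 lower without LKB1 replicate 2. Of the fibroblast markers, whose sum is given above, 4 of 11 passed as higher and none as lower, and their part in the matrix lists was not tested.

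Receptor and kinase pathways gave strong changes in single genes. In the TGF-β and SMAD list, 8 of 30 measured members passed as higher and 7 as lower (median log2 fold change 0.05). Only 2 were lower without control replicate 1, and 4 without any other 1 library. The 2 receptor chains moved apart, TGFBR1 from 1542 and 1553 to 3079 and 3151 (log2 fold change 1.01, SE 0.06, adjusted p = 3.4e-06) and TGFBR2 from 2008 and 1805 to 778 and 729 (log2 fold change -1.34, SE 0.06, adjusted p = 1.2e-06). The ligand GDF11 was at 21.7 and 25.99 with control siRNA and 87.5 and 85.1 with LKB1 siRNA (log2 fold change 1.84, SE 0.11, adjusted p = 4.5e-06). In the RAS, RAF and MAPK list, 11 of 26 measured members passed as higher and 4 as lower (median log2 fold change 0.14). NRAS fell from 1534 and 1599 to 595 and 694 (log2 fold change -1.28, SE 0.10, adjusted p = 1.8e-05) and the kinase MAP2K1 from 784 and 813 to 445 and 432 (log2 fold change -0.86, SE 0.05, adjusted p = 2.3e-06), while the phosphatase DUSP4, a feedback inhibitor of ERK, rose from 135 and 121 to 291 and 248 (log2 fold change 1.07, SE 0.09, adjusted p = 3.3e-05). FGFR4, a receptor of bile acid control in liver, was at 9.94 and 9.67 with control siRNA and 25.2 and 26.6 with LKB1 siRNA (log2 fold change 1.36, SE 0.11, adjusted p = 2.2e-05).

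Among Hippo effectors and targets 2 of 20 measured members passed as higher and 4 as lower (median log2 fold change -0.05), with TEAD1, the DNA-binding partner of YAP, rising from 561 and 462 to 1144 and 967 (log2 fold change 1.05, SE 0.10, adjusted p = 6.1e-05) and the YAP target CYR61 at 18403 and 20505 with control siRNA and 13335 and 14749.5 with LKB1 siRNA (log2 fold change -0.47, SE 0.07, adjusted p = 0.0011). Hedgehog genes had 4 of 18 measured members passed as higher and 1 as lower (median log2 fold change 0.24), and Notch genes had 4 of 20 measured members passed as higher and 0 as lower (median log2 fold change 0.01). Growth factor receptor systems had 6 of 21 measured members passed as higher and 1 as lower (median log2 fold change 0.17), of which HBEGF, a ligand of EGFR, was the faller (343 and 359.9 with control siRNA and 222 and 246 with LKB1 siRNA, log2 fold change -0.59, SE 0.07, adjusted p = 0.00022).

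Interferon-stimulated genes were lower more often than higher: 6 of 39 measured members passed as higher and 13 as lower (median log2 fold change -0.31), and 5 were called lower. IFI44 fell from 72.9 and 91.9 to 33.4 and 37.5 (log2 fold change -1.20, SE 0.12, adjusted p = 6.5e-05), USP18, the protease that removes ISG15 from proteins, from 41.3 and 48.1 to 18.8 and 23.4 (log2 fold change -1.07, SE 0.13, adjusted p = 0.00027), and the RNA sensor IFIH1 from 99.5 and 89.4 to 53.4 and 47.3 (log2 fold change -0.90, SE 0.12, adjusted p = 0.00034). The summed signal of the list went the other way, 22141 and 23489 with control siRNA and 26632 and 27687 with LKB1 siRNA. Without control replicate 1, 7 members were lower and 1 higher, 3 were higher without LKB1 replicate 2, and 6 were lower when HuH-28 was fitted alone. Inflammatory cytokines and chemokines had 4 of 27 measured members passed as higher and 5 as lower (median log2 fold change -0.06), with 2 or 3 lower without any 1 library, and CCL2, a monocyte chemokine, was at 133 and 134 with control siRNA and 244 and 262 with LKB1 siRNA (log2 fold change 0.92, SE 0.14, adjusted p = 0.0011).

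Genes of neuronal vesicles and secretion had 10 of 26 measured members passed as higher and 2 as lower (median log2 fold change 0.47). Besides RAB39B and VGF, STMN3, a tubulin-binding protein of neurons, rose from 2653 and 2587 to 5191 and 4901 (log2 fold change 0.95, SE 0.05, adjusted p = 2.6e-06), and SNAP23, a SNARE found in most cells, fell from 1295 and 1591 to 568 and 676 (log2 fold change -1.21, SE 0.10, adjusted p = 3.4e-05). Of 36 RAB GTPases 7 were higher and 7 lower, with RAB31 down from 901 and 858 to 288 and 279 (log2 fold change -1.63, SE 0.05, adjusted p = 9.1e-08). In the unfolded protein list 4 of 23 measured members passed as higher and 5 as lower (median log2 fold change 0.01), with 1 higher without control replicate 1 and 2 without LKB1 replicate 2. SEL1L, a subunit of the ligase that clears misfolded proteins from the endoplasmic reticulum, fell from 465 and 498 to 181 and 197 (log2 fold change -1.35, SE 0.09, adjusted p = 5.4e-06). Autophagy and lysosome genes had 5 of 28 measured members passed as higher and 4 as lower (median log2 fold change -0.05), with SCARB2 down from 1406 and 1543 to 571 and 614 (log2 fold change -1.31, SE 0.07, adjusted p = 2.2e-06). In the BCL2 family, 3 of 15 measured members passed as higher and 2 as lower (median log2 fold change 0.07). Of 13 genes of the RNA silencing machinery, which carries siRNAs, 4 passed as higher and 1 as lower, among them TARBP2, a partner of Dicer, at 240.0 and 242 with control siRNA and 471 and 499 with LKB1 siRNA (log2 fold change 1.01, SE 0.06, adjusted p = 4.3e-06).

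**Figure D4:**
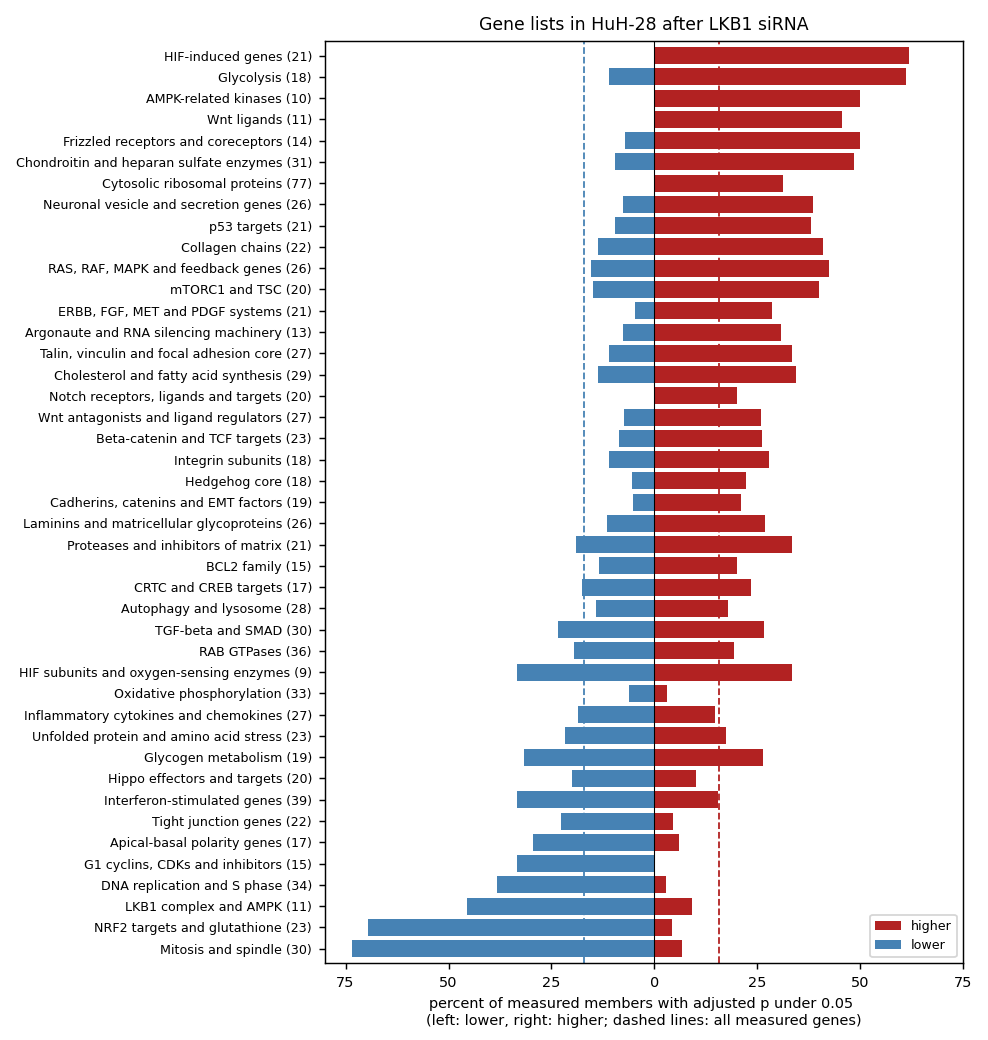
Share of the measured members of each of 43 gene lists (number in parentheses) that passed at an adjusted p under 0.05 in HuH-28, as higher (red, right) or lower (blue, left), in percent (x axis), with dashed lines at the shares among all 14503 members, 15.7% higher and 17.1% lower. HIF-induced genes are at the top with 13 of 21 higher and mitosis and spindle genes at the bottom with 22 of 30 lower.

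The HuH-28 response was then set against the mean response of RBE and SSP-25, each with its own controls. The difference was called (adjusted p under 0.05 and above 1 on the log2 scale) for 357 members (2.46%), 112 above the other lines (0.772%) and 245 below (1.69%). Of the 615 genes called in HuH-28, 137 also had a called difference, 76 of the risers and 61 of the fallers. Of the 395 risers, 165 were also called higher in RBE and 168 in SSP-25, and of the 220 fallers 61 and 66 were also called lower there. The shares of all members called in RBE and SSP-25 were not counted, so these numbers are a description without a background.

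CDH1 was among the clearest. It had log2 fold changes of 1.57 in HuH-28 against -0.80 in RBE and 0.19 in SSP-25, and the difference was 1.87 (limma interaction contrast, adjusted p = 0.00026). CALB2, the calcium-binding protein calretinin, was at 1198 and 1309.7 with control siRNA and 2559 and 2761 with LKB1 siRNA in HuH-28 and had 1.09 there against -0.72 in RBE and -0.70 in SSP-25 (difference 1.79, adjusted p = 0.00022). HAS3, a hyaluronan synthase, was at 229 and 253 with control siRNA and 555 and 591 with LKB1 siRNA and had 1.25 against 0.69 in RBE and -0.11 in SSP-25 (difference 0.96, adjusted p = 0.00038). PLEKHG3, a guanine nucleotide exchange factor at a low level of 5.34 and 5.82 with control siRNA and 18.98 and 21.2 with LKB1 siRNA, had a difference of 1.37 (adjusted p = 0.00059), and ANKRD13A, a ubiquitin-binding protein, one of 0.84 (adjusted p = 0.00024). FERMT2 fell less in HuH-28 than in the other lines (difference 0.88, adjusted p = 0.00026).

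Below the other lines, PTPN22 fell in HuH-28 by 2.25 on the log2 scale and had 0.95 in RBE and 0.67 in SSP-25 (difference -3.06, adjusted p = 0.00053). TMEM156 had a difference of -1.76 (adjusted p = 0.00019), and AKR1C3 had -1.58 against 0.01 in RBE and -0.89 in SSP-25 (difference -1.14, adjusted p = 0.00059). Some risers rose less in HuH-28. STEAP3, an iron reductase, went from 50.5 and 44.7 to 196 and 212 with a log2 fold change of 2.09 against 3.03 in RBE and 3.16 in SSP-25 (difference -1.01, adjusted p = 0.00044). TGFBR1 had 1.01 against 2.16 in RBE and 1.65 in SSP-25 (difference -0.90, adjusted p = 0.00022), and the magnesium transporter SLC41A1, at 176 and 178 with control siRNA and 438 and 411 with LKB1 siRNA, had 1.26 against 2.03 in RBE and 2.09 in SSP-25 (difference -0.80, adjusted p = 0.0002). For ALCAM, TLN1, HIF1A and GBE1 the differences from the other lines were 0.02, -0.02, 0.04 and 0.07, with adjusted p of 0.88, 0.92, 0.81 and 0.55 in the same order.

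**Figure D5:**
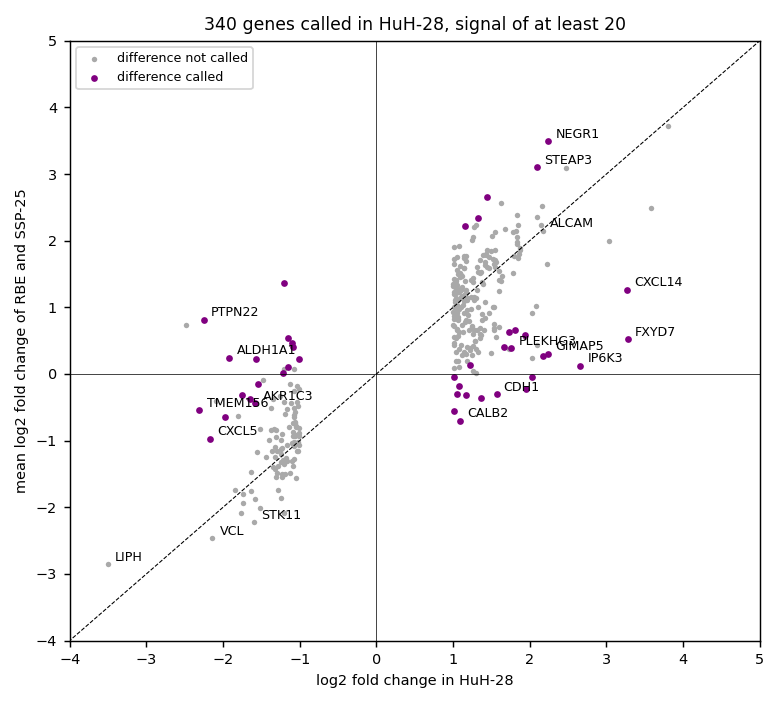
Mean log2 fold change of RBE and SSP-25 (y axis) against that of HuH-28 (x axis) for the 340 genes called in HuH-28 whose higher group had a mean of 20 or more, with genes whose difference was called in purple and the diagonal dashed. CDH1 and CALB2 lie at the right below 0 on the y axis, PTPN22 at the left above it, and ALCAM and VCL near the diagonal.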

How the data were processed

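Libraries were made by the authors from total RNA with an Illumina TruSeq kit and sequenced as short single reads. The deposited table holds 1 signal per gene and library, taken here to be normalized reads per kilobase. The authors' methods name NextGENe and NCBI Build 36. The processing notes of the submitters instead give hg19 (GRCh37), TopHat 1.2.0 and edgeR, and the sources used here do not settle which was used. Of 18815 rows, 23 repeats were dropped. The 28 rows with a date in place of a symbol and 6 with an ambiguous symbol were kept under numbered names.

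Genes whose signal reached 1 in 2 or more of 12 libraries were fitted in limma 3.58.1 (R 4.3.3) on log2(signal + 0.5) with 6 group means (6 residual degrees of freedom, mean-variance trend), after tests on simulated data. The contrasts were the HuH-28 response (LKB1 minus control siRNA) and this minus the mean of the other lines. Named genes were STK11, the 12 largest rises and falls, up to 4 members of each of 48 gene lists by p, genes the study singles out, and up to 6 genes in each direction of the difference from the other lines. The members and lists were chosen with earlier results of these data known. Alternatives were pseudocounts of 0.1, 1 and 10, filters, scalings, no trend, HuH-28 alone, a replicate block in HuH-28 only and leaving out each HuH-28 library. 3′ UTRs came from GENCODE v29 (GRCh38), matched by symbol or synonym.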

Additional observations from a re-analysis of the deposited data

Results flagged for a closer look

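Among the 212 named genes, 20 had a response in HuH-28 that differed from the mean response of RBE and SSP-25 by more than 1 on the log2 scale in a test of the difference itself (limma interaction contrast, adjusted p under 0.05). Over all members this held for 357 of 14503 (2.46%). Some of the 20, CALB2, PTPN22 and TMEM156 among them, were named for the smallest p of this same difference, so their passing follows from the choice. Differences above the other lines were 1.87 for CDH1, 1.79 for CALB2, 1.37 for PLEKHG3 and 1.28 for CGN, each past the threshold without any 1 HuH-28 library (highest adjusted p 0.0029). The difference for IP6K3 was 2.54, and it missed the threshold at a pseudocount of 0.1. FXYD7 had 2.76 and CXCL14 had 2.00, and both missed the threshold without any 1 of the 4 libraries (highest adjusted p 0.056 and 0.07). For GIMAP5 (1.93), GIMAP1-GIMAP5 (1.91) and PECAM1 (1.82) the difference missed it without control replicate 1 (highest adjusted p without 1 library 0.12, 0.11 and 0.14). PECAM1 had signals of only 0.461 and 1.80 with control siRNA and 4.001 and 2.87 with LKB1 siRNA.

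Differences below the other lines were -3.06 for PTPN22, -1.76 for TMEM156, -1.20 for CXCL5, -1.14 for AKR1C3, -1.05 for PPARGC1A and -1.01 for STEAP3, each with an adjusted p under 0.05 without any 1 library. The difference came down to -0.87 for CXCL5, -0.995 for AKR1C3 and -0.92 for STEAP3 without 1 library, short of the minimum of 1. NEGR1 had -1.25, from a rise of 2.24 in HuH-28 against 3.0 in RBE and 3.98 in SSP-25, and missed the threshold at a pseudocount of 10. WNT5B had -1.07, from a rise of 1.16 against 2.69 in RBE and 1.76 in SSP-25, and missed it without control replicate 1 (adjusted p = 0.051). ALDH1A1 had -2.16 and AKR1B10 had -1.32, and these missed it without LKB1 replicate 1 (0.05) and without control replicate 2 (0.053).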

How the results depend on the processing

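STK11 kept its direction and its side of the threshold under every alternative run, with log2 fold changes of -1.70 to -1.48 leaving out 1 library. None of the 212 named genes changed sign. The median log2 fold change of all genes lay near 0 with either sign, from -0.0149 to 0.00559 leaving out 1 library. Leaving out each library in turn gave 330 to 402 genes called higher and 201 to 289 lower, 1868 to 2092 passing as higher and 2021 to 2324 as lower, and 81 to 136 above and 175 to 251 below the other lines. From 430 to 484 of the 615 called genes were called again without 1 library. At a pseudocount of 10, 155 were called higher, 78 lower, 48 above and 59 below the other lines. When genes needed a mean signal of 5, 139 were called lower and 66 were above the other lines. Fitted alone, HuH-28 has 2 residual degrees of freedom, and 136 genes were called lower, 769 passed as higher and 668 as lower. In that fit 67 of 96 counts of list members changed by more than 1.5 times and 66 of 212 named genes no longer passed, while 18 changed side without 1 library. Without a minimum fold, 2277 were higher and 2473 lower. Rises made up 64.2% of calls, 57.7% without LKB1 replicate 2 and 59% after quantile normalization. Alternatives for the difference from the other lines were chosen after seeing the data.

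The replicate number, which is the test number, was used as a block for the HuH-28 libraries only, with no such term for RBE and SSP-25. With it, 414 genes were called higher and 239 lower, 3028 and 3276 passed, and 156 lay above and 287 below the other lines. Deviations of same-numbered libraries correlated across 11560 genes (Pearson r 0.603, Spearman 0.714, a description since genes are not independent replicates), and the study numbers the libraries by a first and a second test, without saying what else a test shared, with only 2 pairs. The block took APOA1 over the threshold (adjusted p = 0.0503) and CCND1 under it (0.0189), and changed no other named gene's call. Beside the lists given with the results, it gave 7 Hippo genes, 11 RAB GTPases, 6 focal adhesion genes and 5 mTORC1 genes lower and 7 unfolded protein genes higher.

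Signals without counts give no depth, so low genes such as CA9, WNT4 and LIPH carry an unknown counting error. The 3′ UTR searched is the longest annotated, not the one shown to be expressed.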
